A study of Mus musculus with 6 samples.

Results

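The heat shock protein and chaperonin genes were followed in bulk RNA-seq of the interscapular brown fat depot of newborn mice. The members are the genes whose symbol begins with Hspa, Hspb, Hspd, Hspe, Hsph, Hsp90 or Dnaj, or with Cct and a number, leaving out Hspa5 and Dnajb9. They number 80 of the 19241 genes in the deposited table. The rule uses symbols only, no measured value, and was set with earlier results of these data known. The study has 6 libraries in 2 groups. The 3 WT libraries came from mice with the genotype Fstl1-floxed and the 3 KO libraries from mice with the genotype Myf5-Fstl1 KO, all newborn, and the labels name no treatment. Fstl1 encodes a secreted glycoprotein. Myf5-Fstl1 KO mice lack it in Myf5-lineage cells, from which skeletal muscle and much of the interscapular brown fat descend, so cells of the depot without a Myf5 history still have the gene. The labels do not name the Cre allele, the age beyond newborn or whether animals were pooled, and nothing says that the libraries of a group came from separate animals, so the p-values measure the spread between these libraries only.

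Molecular chaperones hold, fold or refold other proteins. HSP70 proteins (Hspa genes) bind exposed stretches of unfolded chains in cycles of ATP hydrolysis that J-domain proteins (Dnaj genes) start, and HSP110 proteins (Hsph1 and the Hspa4 pair) exchange their nucleotide. HSP90 proteins act later, on kinases and steroid receptors. Small heat shock proteins (Hspb genes) hold unfolding chains without ATP, and several of them are abundant in muscle. Hspd1 and Hspe1 form the folding chamber of the mitochondrial matrix, into which Hspa9 draws imported chains, and the CCT ring folds actin and tubulin in the cytosol. Some members are made at all times and others are induced through heat shock factor, which binds repeats of the unit GAA facing in alternate directions. Brown fat is rich in mitochondria, most of whose proteins are imported unfolded and folded in the matrix.

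Promoter stretches are shown of the heat-inducible pair Hspa1a and Hspa1b, and of Hspe1, Hsph1 and Dnajb6, which were picked for their motif matches. Such elements are the known route of induction. The motifs searched were GAANNTTC and TTCNNGAA (2 facing units) and GAANNTTCNNGAA and TTCNNGAANNTTC (3 units). Each reads the same on both strands or as the other of its pair, and matches may overlap each other. RefSeq windows of 300 bases, 250 before to 50 after an annotated start on GRCm38.p6, were held for 64 of the 80 members, and not for Dnajc11, Hspa8 or Hsp90aa1. Of these, 19 (29.7%) held a 2-unit match, against 16.9732% of the 27025 genes with a window. A 3-unit match was held by 4 members (6.25%), Hspd1, Hspe1, Hsph1 and Dnajb6, against 0.662% of genes. Dnajb1 had a window without a match of either kind. Below are the 250 bases before the start of Hspe1 (plus strand, chr1:55087898-55088147), of Hspa1a (minus strand, chr17:34972157-34972406) and of Hspa1b (minus strand, chr17:34959239-34959488). They are followed by 30 bases around the 3-unit match of Hsph1 (minus strand, chr5:149636279-149636308) and Dnajb6 (plus strand, chr5:29735844-29735873). Capitals mark the matches.
Hspe1: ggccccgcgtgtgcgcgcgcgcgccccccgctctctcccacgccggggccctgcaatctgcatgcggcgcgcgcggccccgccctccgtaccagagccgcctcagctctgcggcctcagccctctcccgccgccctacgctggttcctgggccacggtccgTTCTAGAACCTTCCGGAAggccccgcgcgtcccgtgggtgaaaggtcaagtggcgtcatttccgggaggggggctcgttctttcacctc
Hspa1a: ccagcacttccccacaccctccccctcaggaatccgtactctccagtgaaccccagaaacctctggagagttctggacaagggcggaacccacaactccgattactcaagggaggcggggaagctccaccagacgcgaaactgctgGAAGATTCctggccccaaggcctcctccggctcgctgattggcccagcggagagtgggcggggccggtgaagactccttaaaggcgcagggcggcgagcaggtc
Hspa1b: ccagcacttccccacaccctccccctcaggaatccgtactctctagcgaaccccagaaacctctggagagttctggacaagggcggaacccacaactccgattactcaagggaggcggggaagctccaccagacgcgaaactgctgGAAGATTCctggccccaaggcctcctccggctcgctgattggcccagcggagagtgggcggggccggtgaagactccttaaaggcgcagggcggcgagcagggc
Hsph1: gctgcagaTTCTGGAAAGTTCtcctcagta
Dnajb6: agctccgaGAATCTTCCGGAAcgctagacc
Hspd1 is transcribed away from Hspe1 on the other strand, and a Hspd1 window shares 285 of its 300 bases with that of Hspe1. The same run of 4 alternating units thus lies before Hspe1 and before an annotated start of Hspd1. The Hspd1 gene record spans 55077833 to 55088243, so the printed stretch lies within it. The Hspa1a and Hspa1b stretches differ at 3 of 250 bases and carry a single 2-unit match each. A match describes the letters only.

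The libraries were of like depth, estimated at 13750000 to 14650000 reads from the steps between low values. With that many reads, a 1 kb transcript hit by 3 of them would be listed at 0.205 to 0.218 FPKM (fragments counted on a gene, divided by transcript length and by library size). Fstl1, the targeted gene, was at 54.4 to 130.04 FPKM in WT, against 7.93 to 13.1 FPKM in KO (limma, log2 fold change −2.79, adjusted p 0.00979, or 0.0606 with low genes kept in the fit), and all 16 brown adipocyte markers were above 0 in every library. Eif2s3y, a Y-linked gene, was at 83.7 to 99.3 FPKM in KO and at most 0.08 FPKM in WT, and Xist was at 44.8 to 85.5 FPKM in WT and at most 0.92 FPKM in KO. Sex as read from these genes thus went with genotype in every library, and genotype and sex cannot be told apart in any comparison here. No member matched in the gene table lies on the X or Y chromosome (79 of 80 matched).

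Levels of the members spanned from near 0 to the top of the tissue's transcripts. Means over the 6 libraries reached at least 100 FPKM in 11 members, at least 10 FPKM in 44 and at least 1 FPKM in 68. Hspa8, the constitutive cytosolic HSP70, had the highest mean and stood at rank 48 of all 19241 genes. It was followed by Hspa9 (rank 141), Dnajc15 (rank 179), Hsp90ab1 (rank 213), Hspe1 (rank 235) and Hspd1 (rank 287). The heat-inducible HSP70 genes stood at the other end: Hspa1a and Hspa1b summed to 0.93 to 1.35 FPKM in WT and 1.12 to 2.19 FPKM in KO, between 0.0677% and 0.211% of the Hspa8 value of the same library. A further 8 members had a mean under 0.5 FPKM and were not tested: Cct6b, Cct8l1, Dnajb7, Dnajb8, Dnajc5b, Dnajc6, Dnajc22 and Hspb3. None of the 8 exceeded 0.89 FPKM in any library, and Cct8l1, Dnajb8 and Dnajc5b were listed at 0 in at least 4 of the 6.

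**Figure D1:**
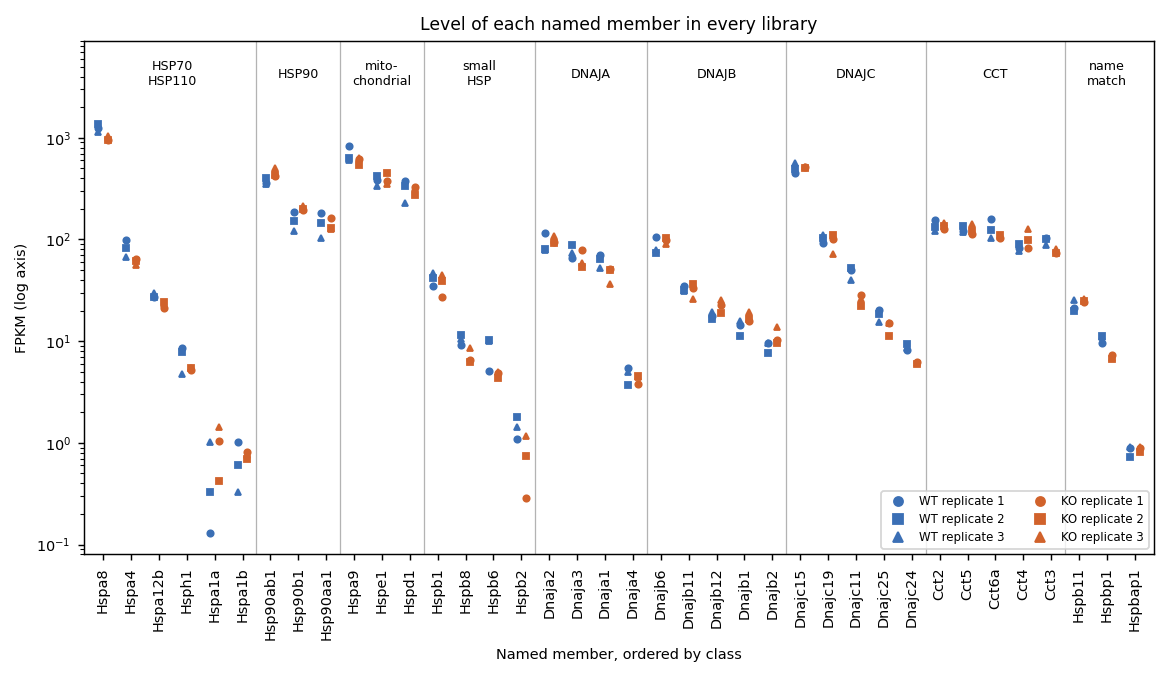
FPKM (log axis) of the 38 named members in each library, ordered by class and, within a class, by mean level. Blue symbols are WT and orange symbols KO libraries, and the symbol shape gives the replicate number. Hspa8 lies highest in every library and Hspa1a and Hspa1b near or below 1 FPKM in both groups.

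Against that range of levels, the members differed little between KO and WT. Values were compared as log2(FPKM + 1) with limma over the 13331 genes whose mean reached 0.5 FPKM, with Benjamini-Hochberg adjustment over all of them. This scale understates the change of low genes. Of the 72 members tested, 1 passed an adjusted p of 0.05, Dnajc11, which was lower in KO, and 0 passed in the higher direction. That is 1.39% of the members, against 2.21% of all genes tested, or 1.01% counted in the lower and 1.21% in the higher direction. At an unadjusted p under 0.05 there were 11 members (15.3%), against 19.2% of all genes. The median log2 difference was −0.01 over the members and 0.01 over all genes, with 38 members below 0 and 34 above. Of the members 68 (94.4%) differed by less than 0.5 on the log2 scale, against 86.4% of all genes tested. The median half-width of the members' 95% intervals, which are not adjusted for the number of genes, was 0.38. Smaller differences in single members could thus not be told from 0 with 3 libraries a group. The adjusted threshold asked for more: Hspb6 at −0.67 and Hspbp1 at −0.55 did not pass. Differences well above 0.38 can therefore have been missed.

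The 2 groups' values did not overlap in 17 members (23.6%, against 24.9% of all genes). KO lay below WT in 13 of these (18.1%, against 11.4%) and above in 4 (5.56%, against 13.6%). The 13 were Cct3, Dnaja1, Dnajb13, Dnajc11, Dnajc24, Dnajc25, Hspa12b, Hspa14, Hspa4, Hspa8, Hspbp1, Hspb6 and Hspb8, and the 4 were Dnajb1, Hsp90ab1, Hsp90b1 and Hspa1l. Apart from Dnajc11 none of them passed the adjusted threshold. The spread within WT was wide for many members: WT replicate 1 was the highest of the 3 in 34 of 72 members (47.2%, against 36.1% of all genes) and WT replicate 3 the lowest in 40 (55.6%, against 41.6%).

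**Figure D2:**
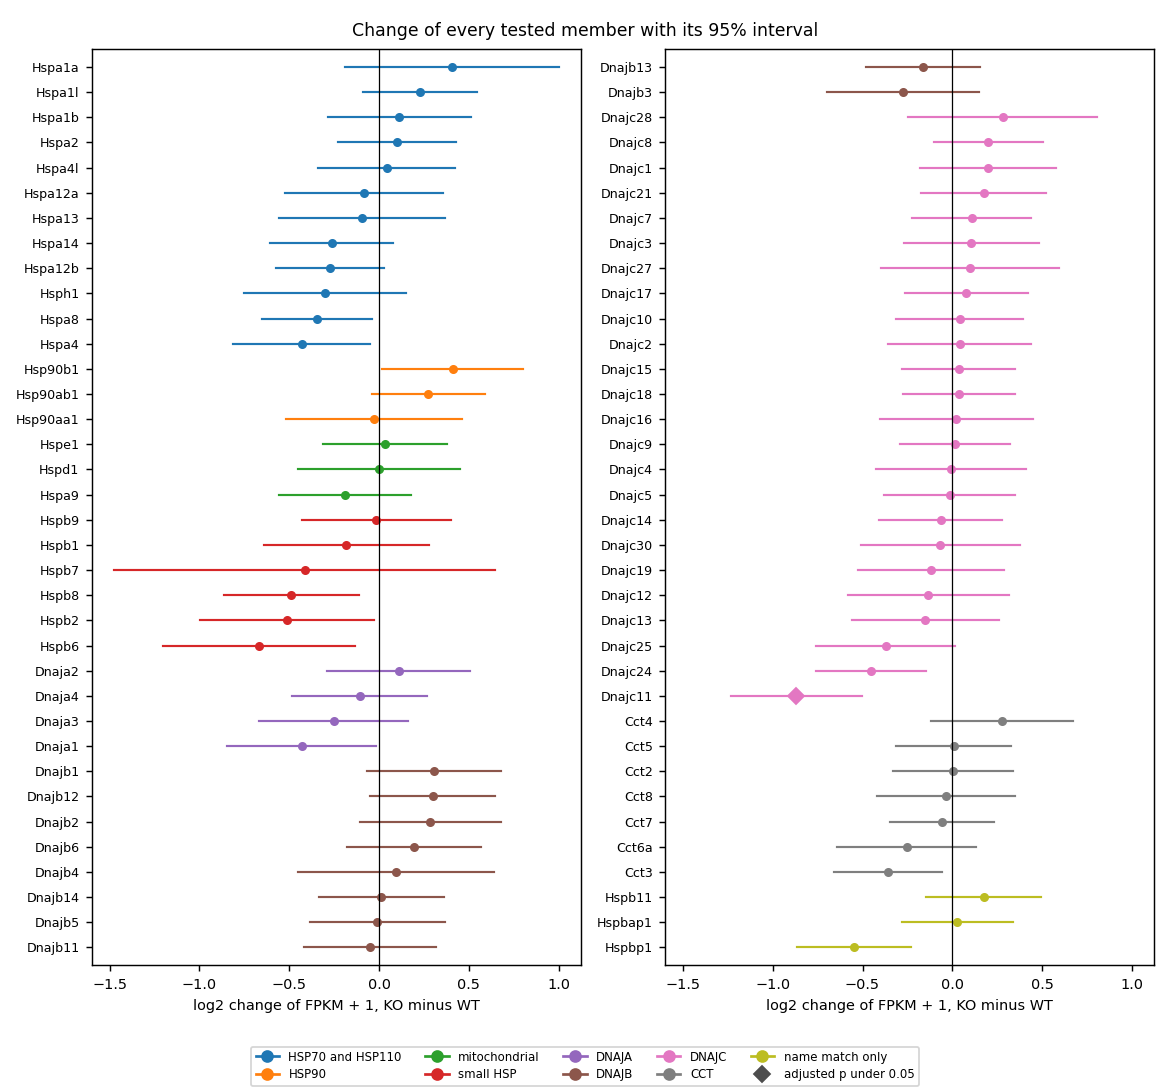
Log2 difference of FPKM + 1 (KO minus WT, horizontal axis) of the 72 tested members with its 95% interval from limma, coloured by class. The diamond marks Dnajc11, the member that passed the adjusted threshold, at −0.87; most other intervals cross 0.

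Dnajc11 (Entrez gene 230935, chromosome 4, 151933720 to 151981959 on GRCm38.p6) encodes a J-domain protein of mitochondria that is found with the complex shaping the cristae. Its level was 50.08, 52.11 and 40.35 FPKM in WT replicates 1, 2 and 3, and 28.67, 21.93 and 26.11 FPKM in KO replicates 1, 2 and 3. The highest KO library thus lay below the lowest WT library. Dnajc11 fell from 47.5 ± 6.29 to 25.6 ± 3.40 FPKM (SD, n = 3 each), or 53.8% of the WT mean. On the log2 scale this was −0.87 (limma, SE 0.16, 95% interval −1.23 to −0.50, adjusted p 0.0389). Its transcript shares 0% of its 50-base words with annotated transcripts of other genes, so its reads are not split with a near copy. The call was close to the threshold: leaving out any of the 6 libraries ended it, with adjusted p (limma) from 0.0534 to 0.172 and log2 fold changes from −0.98 to −0.77, and keeping low genes in the fit gave an adjusted p of 0.0828.

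The other mitochondrial members did not pass. Hspa9, the matrix HSP70, was at 824, 639 and 600 FPKM in WT, against 616, 542 and 639 FPKM in KO, and the groups overlapped (limma, log2 difference −0.19, adjusted p 0.560). Hspd1, the chaperonin of the matrix, was at 376, 337 and 228 FPKM in WT, against 329, 273 and 321 FPKM in KO. Its log2 difference was −0.001 with an interval of −0.45 to 0.45. Hspe1, its co-chaperonin, was at 388, 420 and 336 FPKM in WT, against 372, 446 and 355 FPKM in KO, a difference of 0.04 with an interval of −0.31 to 0.38. The ratio of Hspe1 to Hspd1 FPKM, 2 genes with overlapping windows, was 1.25 ± 0.220 in WT and 1.29 ± 0.298 in KO (SD, n = 3 each). Of the 50-base words of Hspd1 and of Hspe1, 44.8% each also occur in annotated transcripts of other genes. Both levels and their ratio thus depend on how such reads were assigned. Among the mitochondrial J-domain members, Dnajc15 (an inner membrane protein) lay at 501 ± 59.2 and 512 ± 11.0 FPKM and Dnajc19 (a part of the import motor) at 91.73, 104.27 and 109.54 FPKM in WT, against 100.92, 111.35 and 72.72 FPKM in KO. Dnaja3, a matrix partner of Hspa9, lay at 75.7 ± 11.6 and 63.7 ± 13.0 FPKM (limma, log2 difference −0.25, adjusted p 0.486). No difference in these matrix chaperones was called beside that in Dnajc11. Only 2.21% of all genes were called, so the lack of a call among so few genes is no contrast with Dnajc11.

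In the HSP70 and HSP110 class, 12 genes were tested and 0 passed (limma). At an unadjusted p under 0.05 there were 2, against 19.2% of all genes. Of the 12, 7 lay below 0 and 5 above, with a median of −0.09. Hspa8 was at 1235, 1373 and 1151 FPKM in WT, against 961, 956 and 1036 FPKM in KO, so that every KO library lay below every WT library. KO held 78.5% of the WT mean, a log2 difference of −0.35 with an interval of −0.65 to −0.04 that did not pass (limma, adjusted p 0.214). Of the Hspa8 transcript, 74.8% of the 50-base words also occur in annotated transcripts of other genes, mostly in Gm15459, so its level depends on how the authors assigned such reads. Hspa4, a nucleotide exchange factor of the HSP110 type, was at 99.88, 82.20 and 67.31 FPKM in WT, against 64.90, 61.63 and 55.71 FPKM in KO, also without overlap (limma, log2 difference −0.43, adjusted p 0.212). Hsph1, the inducible HSP110, was at 8.53, 7.81 and 4.78 FPKM in WT, against 5.22, 5.44 and 5.49 FPKM in KO. Its groups overlapped, since WT replicate 3 lay below all KO libraries. Hspa12b, a distant relative found in endothelium, lay at 28.0 ± 1.65 FPKM in WT and 23.0 ± 1.53 FPKM in KO (limma, log2 difference −0.27, adjusted p 0.305).

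RNA of the heat-inducible pair was listed at low levels in both groups. Hspa1a was at 0.13, 0.33 and 1.02 FPKM in WT, against 1.05, 0.42 and 1.43 FPKM in KO. Hspa1b was at 1.01, 0.60 and 0.33 FPKM in WT, against 0.81, 0.70 and 0.76 FPKM in KO. Both overlapped between the groups (limma, log2 differences 0.41 and 0.11, adjusted p 0.435 and 0.775). With a pseudocount of 0.01 the log2 differences were 1.25 and 0.36, and neither passed. By an estimate from depth and transcript length these values rest on about 6 to 59 reads for Hspa1a and 12 to 41 for Hspa1b. The 2 transcripts share 62.3% of the 50-base words of Hspa1b, so reads can be split between them and each single value is uncertain. If shared reads were left out, both values and their sum would be too low.

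Dnajb1 and Dnajb6 did not pass either. Dnajb1, the main J-domain partner of the inducible HSP70, was at 14.53, 11.20 and 15.67 FPKM in WT, against 15.81, 16.42 and 19.34 FPKM in KO. KO lay narrowly above WT in every library (limma, log2 difference 0.31, adjusted p 0.355). Dnajb6, which holds back aggregation, was at 104.82, 73.71 and 78.55 FPKM in WT, against 99.05, 103.02 and 89.25 FPKM in KO (limma, log2 difference 0.19, adjusted p 0.559). It shares 42.8% of its 50-base words with other annotated transcripts. Of the 17 tested members with a 2-unit match in their window, 8 lay below 0 and 9 above, with a median of 0.01 and 0 called by limma. Dnajc11, the called member, has no window and is not among them. The 4 with a 3-unit match split 2 and 2, with a median of 0.02. Among the heat shock factor genes, Hsf1, the main stress-activated factor, was at 9.98 ± 1.58 FPKM in WT and 8.19 ± 1.02 FPKM in KO (limma, adjusted p 0.437). Hsf2 was at 6.62 ± 1.09 and 7.56 ± 1.13 FPKM (SD, n = 3 each, with a limma adjusted p of 0.637).

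Of the 3 HSP90 genes, Hsp90b1 and Hsp90ab1 lay above WT in KO without passing (limma, 0 called). At an unadjusted p under 0.05 there was 1, against 19.2% of all genes. Hsp90b1, the HSP90 of the endoplasmic reticulum, was at 187, 153 and 121 FPKM in WT, against 193, 199 and 212 FPKM in KO. All KO libraries were above all WT libraries, with WT replicate 1 close below the lowest KO library. KO was at 131% of the WT mean, a log2 difference of 0.41 with an interval of 0.02 to 0.80 (limma, adjusted p 0.243), and it was 0.25 without WT replicate 3. Hsp90ab1, the constitutive cytosolic form, was at 362, 405 and 352 FPKM in WT, against 422, 432 and 502 FPKM in KO (limma, log2 difference 0.27, adjusted p 0.324). Hsp90aa1, the inducible form, was at 183, 147 and 103 FPKM in WT, against 162, 129 and 125 FPKM in KO, with a difference of −0.03. That difference was not stable in sign, and 58.5% of the 50-base words of Hsp90aa1 occur in other annotated transcripts. The ratio of Hsp90ab1 to Hsp90aa1 ran from 1.98 to 3.43 in WT and from 2.61 to 4.004 in KO, with overlap.

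Values of other members of the endoplasmic reticulum stand beside those of Hsp90b1, with no test of the difference between genes, and none of them passed (limma). Dnajb11, a J-domain partner of the lumenal HSP70, lay at 32.8 ± 2.02 FPKM in WT and 31.9 ± 5.67 FPKM in KO. Dnajc3, which also dampens a translation-inhibiting kinase, lay at 23.2 ± 4.41 and 24.8 ± 2.25 FPKM, and Dnajc10, a disulfide reductase, at 11.8 ± 1.87 and 12.1 ± 0.756 FPKM (SD, n = 3 each). Hspa13, an HSP70 of microsomes, lay at 6.98 ± 1.98 and 6.35 ± 0.935 FPKM. Dnajb12, anchored in the membrane, was at 17.63, 16.57 and 19.22 FPKM in WT, against 22.70, 18.73 and 25.28 FPKM in KO, above WT on average and with overlap (limma, 0.30, adjusted p 0.334). Hspa5, the lumenal HSP70 that the choice of members leaves out, was at 343, 221 and 224 FPKM in WT, against 291, 320 and 260 FPKM in KO, with overlap.

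**Figure D3:**
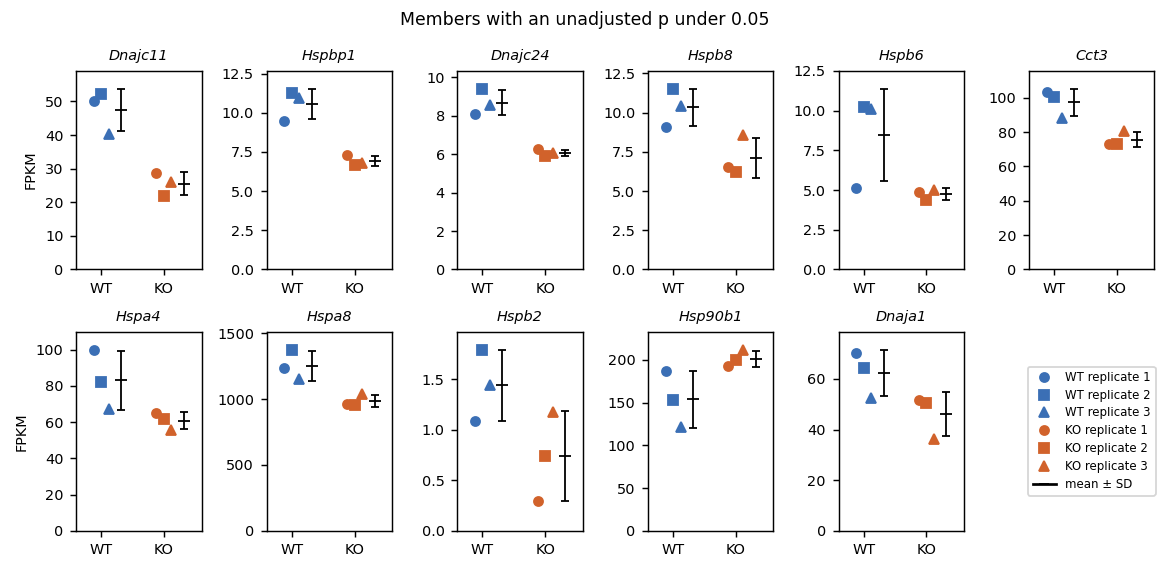
FPKM (vertical axis, from 0) of the 11 members with an unadjusted p under 0.05, by group. Symbols are libraries and the bar beside them is the mean with its SD (n = 3). In 10 of the panels the groups do not overlap, and Hspb2 is the exception. The choice by p in the same comparison favours this. Over all tested members the groups did not overlap in 23.6%, against 24.9% of all genes. Hsp90b1 is the panel with KO above WT.

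All 6 tested small heat shock protein genes lay below 0, with a median log2 difference of −0.45, and 0 of them passed (limma), 3 of them at an unadjusted p under 0.05. Over all genes tested 6446 of 13331 lay below 0, and 19.2% had an unadjusted p under 0.05. Hspb6, a partner of cardiac and smooth muscle proteins, was at 5.12, 10.21 and 10.10 FPKM in WT, against 4.88, 4.36 and 5.02 FPKM in KO. The 3 KO libraries were alike, and WT replicate 1 lay beside them rather than with its own group. The log2 difference was −0.67 (limma, SE 0.24, adjusted p 0.176). Without WT replicate 1 it was −0.96 and passed (limma, adjusted p 0.0325), while over the other 15 alternatives the adjusted p stayed above the threshold, up to 0.464. Hspb8, which feeds damaged proteins to autophagy together with Bag3, was at 9.10, 11.49 and 10.39 FPKM in WT, against 6.53, 6.23 and 8.57 FPKM in KO, without overlap (limma, log2 difference −0.49, adjusted p 0.161). Hspb2, a muscle form, was at 1.09, 1.79 and 1.44 FPKM in WT, against 0.29, 0.74 and 1.18 FPKM in KO, with overlap (limma, −0.51, adjusted p 0.237). With a pseudocount of 0.01 it was −1.14 and did not pass. Hspb2 lies next to Cryab and shares 28.0% of its 50-base words with it, so the reads of the 2 genes are hard to separate. Hspb1, the widely expressed form, was at 35.16, 42.12 and 46.61 FPKM in WT, against 26.90, 39.15 and 44.31 FPKM in KO. It shares 51.6% of its 50-base words with other annotated transcripts.

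Markers of skeletal muscle were low in 1 KO library, in which some of these genes, not all, were low as well. The summed level of 24 muscle markers, none of them at 0, was 1742 to 2521 FPKM in WT and 463, 1893 and 2275 FPKM in KO replicates 1, 2 and 3, and 0 of the 23 tested passed (limma). KO replicate 1, the library low in muscle markers, also held the lowest Hspb2, Hspb7 and Hspb1 values. The lowest Hspb6 and Hspb8 values were in KO replicate 2, at 4.36 and 6.23 FPKM. Hspb9 was highest in KO replicate 1, at 1.48 FPKM, with 0.69 to 1.27 FPKM in the other libraries. Hspb7, named for this pattern after its values were seen, was at 8.21, 8.49 and 6.66 FPKM in WT, against 1.80, 6.44 and 12.58 FPKM in KO. Without KO replicate 1 the median of the class was −0.23, with 4 members below 0 and 2 above. The log2 difference was then −0.32 for Hspb2, −0.44 for Hspb8, −0.68 for Hspb6 and 0.02 for Hspb1. The part of muscle RNA in the values of the small members was not tested. In a bulk depot, fewer cells of a type and less RNA per cell cannot be told apart.

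**Figure D4:**
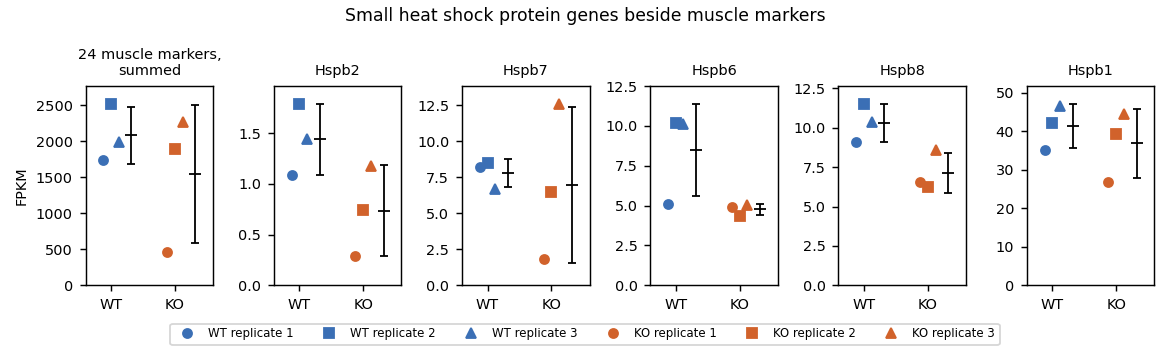
Summed FPKM of 24 skeletal muscle markers (left) and FPKM of 5 small heat shock protein genes by group, with mean and SD (n = 3). KO replicate 1 (orange circle) is the lowest library for the muscle sum, at 463 FPKM, and for Hspb2, Hspb7 and Hspb1, while for Hspb6 all 3 KO libraries lie together.

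The 7 tested CCT subunit genes had means from 47.4 to 136 FPKM over the libraries, and 0 of them passed (limma). Only 1 had an unadjusted p under 0.05, against 19.2% of all genes. Their summed level was 760, 713 and 613 FPKM in WT and 617, 661 and 719 FPKM in KO, and the groups overlapped. Cct3 was at 103.29, 100.32 and 88.19 FPKM in WT, against 73.15, 72.97 and 80.67 FPKM in KO, with every KO library below every WT library. KO held 77.7% of the WT mean, a log2 difference of −0.36 (limma, adjusted p 0.195). Cct4 was at 82.86, 90.39 and 76.38 FPKM in WT, against 82.76, 98.33 and 125.84 FPKM in KO, where KO replicate 3 was the highest library (limma, 0.28, adjusted p 0.424). As a share of the 7 subunits' summed FPKM, Cct3 went from 13.6% to 14.4% in WT libraries and from 11.0% to 11.8% in KO libraries, and Cct4 from 10.9% to 12.7% and from 13.4% to 17.5%. The share of Cct6a went from 16.8% to 20.9% in WT libraries and from 14.6% to 16.7% in KO libraries, also without overlap. These shares were looked at after the values were seen and carry no test. In level, Cct2 at 99.9%, Cct5 at 101%, Cct7 at 96.0% and Cct8 at 96.2% of the WT mean lay close to WT. Cct6a was at 82.5%, with overlap and with WT replicate 1 high at 159 FPKM. Tcp1, the ring member whose symbol does not begin with Cct, was at 165 ± 18.4 FPKM in WT and 153 ± 15.1 FPKM in KO.

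**Figure D5:**
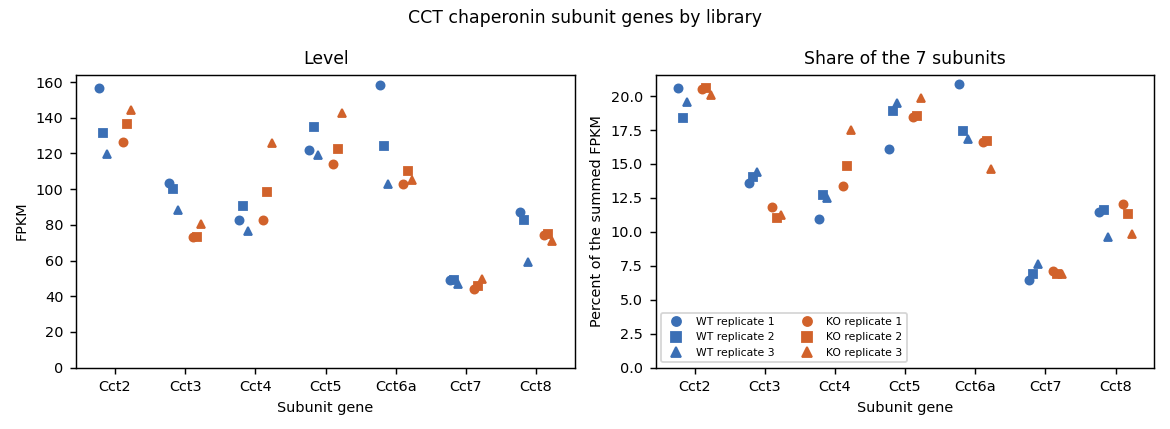
FPKM (left) and percent of the summed FPKM (right) of 7 CCT subunit genes in each library, WT in blue and KO in orange. Cct3 is lower in level and share in the KO libraries, at 11.0% to 11.8% of the sum against 13.6% to 14.4%, and the levels of the other subunits overlap.

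The J-domain genes made up the largest class. Of 38 tested DNAJA, DNAJB and DNAJC genes, 1 passed, Dnajc11 (limma), where 2.21% of all genes passed. At an unadjusted p under 0.05 there were 1 DNAJA, 0 DNAJB and 2 DNAJC genes, against 19.2% of all genes. Below 0 lay 3 of 4 DNAJA, 4 of 10 DNAJB and 10 of 24 DNAJC genes, with medians of −0.18, 0.05 and 0.03. Dnaja1, a farnesylated partner of Hspa8, was at 70.31, 64.23 and 52.29 FPKM in WT, against 51.80, 50.38 and 36.31 FPKM in KO, without overlap (limma, log2 difference −0.43, adjusted p 0.244). Dnajc24, which takes part in making the diphthamide residue of a translation factor, was at 8.11, 9.40 and 8.53 FPKM in WT, against 6.24, 5.90 and 6.05 FPKM in KO. Its groups did not overlap and its KO libraries were close together (limma, −0.45, adjusted p 0.120). Dnajc25 lay at 18.1 ± 2.41 FPKM in WT and 13.8 ± 2.27 FPKM in KO (limma, −0.37, adjusted p 0.278). Dnaja2 lay at 92.1 ± 20.9 and 98.1 ± 8.52 FPKM and Dnaja4 at 4.70 ± 0.888 and 4.25 ± 0.404 FPKM. Of the 50-base words of Dnaja1 and Dnaja4, 28.8% and 51.9% occur in other annotated transcripts. Dnajb2 lay at 8.93 ± 1.10 and 11.2 ± 2.21 FPKM (limma, 0.28, adjusted p 0.409).

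The symbol rule also takes in 3 genes that are not themselves heat shock proteins. Hspbp1, a nucleotide exchange factor that binds HSP70, was at 9.49, 11.28 and 10.97 FPKM in WT, against 7.29, 6.65 and 6.79 FPKM in KO. The groups did not overlap, and KO held 65.3% of the WT mean. Its log2 difference of −0.55, with an interval of −0.86 to −0.23, had the smallest p after Dnajc11 and did not pass (limma, SE 0.14, adjusted p 0.0806). Hspb11, a protein of intraflagellar transport, lay at 22.1 ± 2.76 and 25.0 ± 0.657 FPKM and Hspbap1 at 0.847 ± 0.102 and 0.880 ± 0.0529 FPKM in WT and KO.

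The co-chaperones and regulators that work with these proteins were read from a list of 50 genes, of which 49 were in the table and 46 were tested. None passed in limma (lowest adjusted p 0.106), and 6 had an unadjusted p under 0.05 (13.0%, against 19.2% of all genes). Of the 46, 31 lay below 0 and 15 above, with a median of −0.07, where 6446 of all 13331 genes tested lay below 0. The groups did not overlap in 12 (26.1%, against 24.9%). KO lay below WT in 9 of these (19.6%, against 11.4%) and above in 3 (6.52%, against 13.6%). Stip1, which hands clients from HSP70 to HSP90, was at 43.05, 42.25 and 40.45 FPKM in WT, against 33.07, 28.83 and 28.89 FPKM in KO. Its libraries were tight within each group and apart between them (limma, log2 difference −0.46, adjusted p 0.106). Fkbp5, an HSP90 co-chaperone of steroid receptors, was at 23.29, 21.57 and 13.80 FPKM in WT, against 40.46, 26.67 and 34.83 FPKM in KO (limma, 0.78, adjusted p 0.109). Bag3, the partner of Hspb8 in selective autophagy, was at 21.92, 21.02 and 23.97 FPKM in WT, against 29.36, 28.11 and 38.89 FPKM in KO (limma, 0.49, adjusted p 0.143). Bag3 and Hspb8 thus lay on opposite sides of WT, each without overlap between the groups and without passing the threshold.

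Other cell types differed between libraries as well. The summed level of 16 brown adipocyte markers was 23073 to 30076 FPKM in WT and 23129 to 25100 FPKM in KO, and 3 of them, Plin1, Elovl3 and Otop1, fell in KO (limma). Another 3 of the 16 also lay below WT in every KO library, 6 in all, against 11.4% of all genes, and among them Ucp1, the uncoupling protein, at 48.9% of the WT mean did not pass (limma, adjusted p 0.0804). Of 12 macrophage markers 6 lay above WT in every KO library, against 13.6% of all genes, and 0 passed (limma), with sums of 144 to 214 FPKM in WT and 205 to 280 FPKM in KO. The 12 erythroid markers summed to 3386 to 14405 FPKM in WT, highest in replicate 3, and to 3077 to 3970 FPKM in KO, with Hbb-b1 and Hbb-b2 listed at 0 in at least 1 library. The 10 endothelial markers summed to 582 to 803 and 605 to 661 FPKM. The 12 immediate early genes, which respond to handling, summed to 117 to 171 FPKM in WT and 116 to 133 FPKM in KO. Of these, 11 were tested and 4, Fos, Egr1, Ier3 and Dusp1, lay below WT in every KO library, against 11.4% of all genes. Fos fell by 1.37 on the log2 scale, to 3.12 FPKM from 9.61 (adjusted p 0.00841 in limma). Egr1 at 51.8% of the WT mean did not pass (limma, adjusted p 0.117). The marker lists were set with earlier results of these data known, so these counts are no test of a difference in cell types. The part of these differences in the values of the chaperone genes was not tested.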

How the data were processed

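The deposited table holds FPKM values per gene, computed by the authors and rounded to 2 decimals, per the file headers, with 1 column per library. The submitters' processing notes name mm10, HISAT2 2.0.4, Bowtie2 2.2.5 and DESeq2, with no role. The counting tool, annotation release and strand handling are not given in the sources used here. Groups and replicate numbers came from the titles. FPKM are not counts, so no count model was fitted. Values were taken as log2(FPKM + 1), genes under a mean of 0.5 FPKM were left out, and KO was compared with WT in limma 3.58.1 (R 4.3.3), with lmFit and eBayes with an intensity trend, two-sided. An exact permutation test of 3 against 3 cannot give a p below 0.1 and was not used. The fit was tested on simulated data.

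The members and lists were chosen with earlier results of these data known. Named members are all past the threshold, in each class the 3 with the smallest p and the 2 with the highest mean, and a fixed set of main chaperones; of the co-chaperones, all past the threshold and the 3 with the smallest p. Cct7, Cct8, Dnajc3, Dnajc10, Hspa13, Hspb7, Hspb9, Hspa5, Hsf1, Hsf2 and Tcp1 stand outside this rule. They were named with their values known, as were members listed for not overlapping. Depth is an estimate, the value at which 77.6% to 84.3% of 427 to 456 low values per library, from genes with 1 listed transcript of 500 to 1300 bases, lay within 0.2 of a whole read. Positions and promoters came from RefSeq on GRCm38.p6, the assembly called mm10, and transcripts from GENCODE vM21.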

Additional observations from a re-analysis of the deposited data

How the results depend on the processing

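Tried were 16 alternatives: smaller pseudocounts (0.1, 0.01), keeping low genes, dropping those under 5 FPKM, 3 scalings, 2 other eBayes settings, the replicate block and leaving out each library. Dnajc11 kept its direction in all 16 and its adjusted p (limma) ran from 0.0260 to 0.172, past the threshold in 8. All 6 libraries gave 295 genes and 1 member. Without the filter 35 genes and 0 members were called and Fstl1 had an adjusted p of 0.0606 (limma), and with the replicate block 167 and 0. WT and KO share replicate numbers, but deviations of same-numbered libraries correlated at only 0.0681, 0.0433 and 0.0433, so the numbers were not taken as pairs; with the replicate block Dnajc11 had an adjusted p of 0.0613. Leaving out 1 library gave 31 (without WT replicate 3) to 370 genes (without WT replicate 1) and 0 to 1 members; the 1, without WT replicate 1, was Hspb6 and not Dnajc11. No alternative called a co-chaperone. Of 41 named members and co-chaperones, 30 kept their direction throughout. The other 11 lay between −0.18 (Hspb1) and 0.11 (Hspa1b) in the main fit. Hspb1 changed sign only without KO replicate 1. Quantile normalization turned Hsp90aa1 (0.0097), Hspbap1 (−0.00061) and Hspd1 (0.015), median-of-ratios scaling Cct2 (−0.020) and Cct5 (−0.018), and trimmed-mean scaling the same 2 (−0.014 and −0.013). Leaving out 1 library, log2 differences ran from −0.080 to 0.11 for Cct2, −0.083 to 0.077 for Cct5, −0.16 to 0.091 for Dnajb11, −0.045 to 0.12 for Dnajc15, −0.24 to 0.061 for Dnajc19, −0.25 to 0.16 for Hsp90aa1, −0.030 to 0.27 for Hspa1b, −0.33 to 0.021 for Hspb1, −0.019 to 0.056 for Hspbap1, −0.21 to 0.14 for Hspd1 and −0.063 to 0.11 for Hspe1. Without a change of sign, and with no call, Cct4 moved from 0.28 to 0.12 (without KO replicate 3), Hspa9 from −0.19 to −0.05 (without WT replicate 1), Cct6a from −0.25 to −0.09 (without WT replicate 1), Dnajb2 from 0.28 to 0.14 (without KO replicate 3) and Hsph1 from −0.30 to −0.16 (without WT replicate 1). The cause was not tested.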
